A study of Caenorhabditis elegans with 21 samples.

Results

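The PAR polarity genes are the 9 genes of *Caenorhabditis elegans* whose products set up the anterior to posterior axis of the zygote, and their transcripts were followed here in early embryos and in RNA recovered with OMA-1 from young adults. They were chosen by name, with earlier results of these data known, and comprise *par-1* to *par-6*, *pkc-3*, *lgl-1* and *cdc-42*. All 9 were found by gene identifier among the 46891 genes of the embryo count tables and among the 18887 genes of the RIP-seq files. In the zygote, the sperm-derived cue at the future posterior pole lets the PAR proteins sort into mutually exclusive cortical domains. The scaffold PAR-3, its partner PAR-6, the atypical protein kinase PKC-3 and the small GTPase CDC-42 occupy the anterior cortex, while the kinase PAR-1, the RING protein PAR-2 and LGL-1 occupy the posterior cortex, and each side removes the other by phosphorylation. The kinase PAR-4 and the 14-3-3 protein PAR-5 are found at both poles. The mRNAs are supplied by the mother.

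The embryo groups were the double mutant with the genotype *fzy-1(D433N);oma-1(zu405)*, the *oma-1(zu405)* single mutant, which carries a gain-of-function allele of a CCCH zinc finger RNA-binding protein of oocytes, and the wild type strain N2. FZY-1 is the Cdc20 activator of the anaphase promoting complex, and the question was how its mutation changes the transcriptome of the *oma-1* mutant. All animals were grown at 25 °C to early young adults, and early embryos were released from them by bleaching. RIP-seq (sequencing of RNA bound to an immunopurified protein) was carried out on whole young adults of fzy-1;oma-1ts-gfp, oma-1ts-gfp and oma-1-gfp, in which OMA-1, in its mutant form in the strains labelled ts, was pulled down through GFP, with total RNA of the same strains as input and 2 RIP and 2 input libraries per strain. The labels list 3 embryo samples per genotype, and 2 libraries per genotype were analysed, named D1 and D3 in the double mutant, C1 and C2 in the single mutant and A1 and A2 in N2. No source says that libraries of a group came from separate cultures, so p-values cover only the spread between these libraries.

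The embryo libraries differed in ways that bear on each result. Their totals lay between 3599426 and 18815357 counts, the smallest being D1. The double mutant libraries did not resemble each other. Over the 9 PAR genes the normalized levels of D1 and D3 differed by a median of 1.48 on the log2 scale, against 0.06 between C1 and C2 and 0.09 between A1 and A2. D3 lay within 1 log2 unit of the N2 mean for 9 of 9 PAR genes and for 94.9% of 12885 genes, D1 for 2 of 9 and for 38.2%, C1 for 3 of 9 and for 46.5%, and C2 for 4 of 9 and for 45.7%. Genes of ribosomal RNA held 5.98% of all D1 counts, against 0.0525% of those of D3. The normalized levels below are CPM (counts relative to the library total) scaled by TMM factors, which correct for a few genes taking much of a library. Those factors were 0.45 in D1 and 1.55 in D3, 0.701 and 0.677 in C1 and C2, and 1.73 and 1.74 in A1 and A2. The scaling therefore decides how large the difference between genotypes is, and fold changes of *oma-1(zu405)* against N2 under total counts are given beside it. The alleles are missense mutations, so the level of their transcripts does not test the labels. Whether D3 carries its labelled genotype could therefore not be checked, which limits what any value of the double mutant means, and these values are given per library below.

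The 9 genes lie on 6 chromosomes (positions on WBcel235). In the anterior group, *par-3* (WBGene00003918) lies at III 5664233 to 5676795, *par-6* (WBGene00003921) at I 12669380 to 12674449, *pkc-3* (WBGene00004034) at II 5380027 to 5384169 and *cdc-42* (WBGene00000390) at II 7616452 to 7618245. In the posterior group, *par-1* (WBGene00003916) lies at V 14112033 to 14145367, *par-2* (WBGene00003917) at III 1081401 to 1095082 and *lgl-1* (WBGene00018987) at X 864097 to 871089. *par-4* (WBGene00003919) lies at V 18098687 to 18106405 and *par-5* (WBGene00003920) at IV 11820506 to 11821924. Reads were counted over whole genes, so the 18 coding transcripts annotated for *par-1* and the 16 for *par-3* were not told apart. The ends of *par-3*, *cdc-42* and *pkc-3* overlap F54E7.9, R07G3.8 and *ccpp-6* on the other strand, and the strand setting of the counting is not given. F54E7.9 had at most 47.5% of the counts of *par-3*, in D1, R07G3.8 at most 10.6% of those of *cdc-42*, and *ccpp-6* at most 0.297% of those of *pkc-3*. The 14-3-3 paralog *ftt-2* is similar enough to *par-5* that reads could be split between them.

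In N2 embryos the PAR mRNAs spanned a wide range of levels, and *par-5* was the most abundant. Per kilobase of exon, *par-5* stood at 327 ± 23.5 CPM and *cdc-42* at 141.7 ± 7.51 CPM (SD, n = 2 libraries here and in the next sentences). Then came *par-6* at 43.6 ± 5.26, *pkc-3* at 41.8 ± 0.295 and *par-3* at 40.6 ± 1.25 CPM per kb, 3 members of the anterior complex whose means lie within their spread of each other. *par-1* at 35.7 ± 0.0511, *par-4* at 21.3 ± 0.915, *lgl-1* at 16.4 ± 0.724 and *par-2* at 13.9 ± 1.69 CPM per kb were the lowest. In *oma-1(zu405)* embryos the order kept *par-5* first, at 3204 ± 42.4 CPM per kb, and *cdc-42* at 384 ± 16 CPM per kb after it, but *par-2*, last in N2, stood next after *pkc-3* at 57.3 ± 0.34 CPM per kb. There *par-6* stood at 181 ± 1.42 and *pkc-3* at 137 ± 3.92 CPM per kb, above *par-3* at 40.4 ± 0.909. *par-4* at 30.8 ± 7.07 and *par-1* at 25.9 ± 4.39 CPM per kb did not differ beyond their spread, and *lgl-1* was last at 7.03 ± 1.91. In the double mutant *par-5* stood at 2653 ± 3183 CPM per kb, so its 2 libraries give no usable mean.

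**Figure D1:**
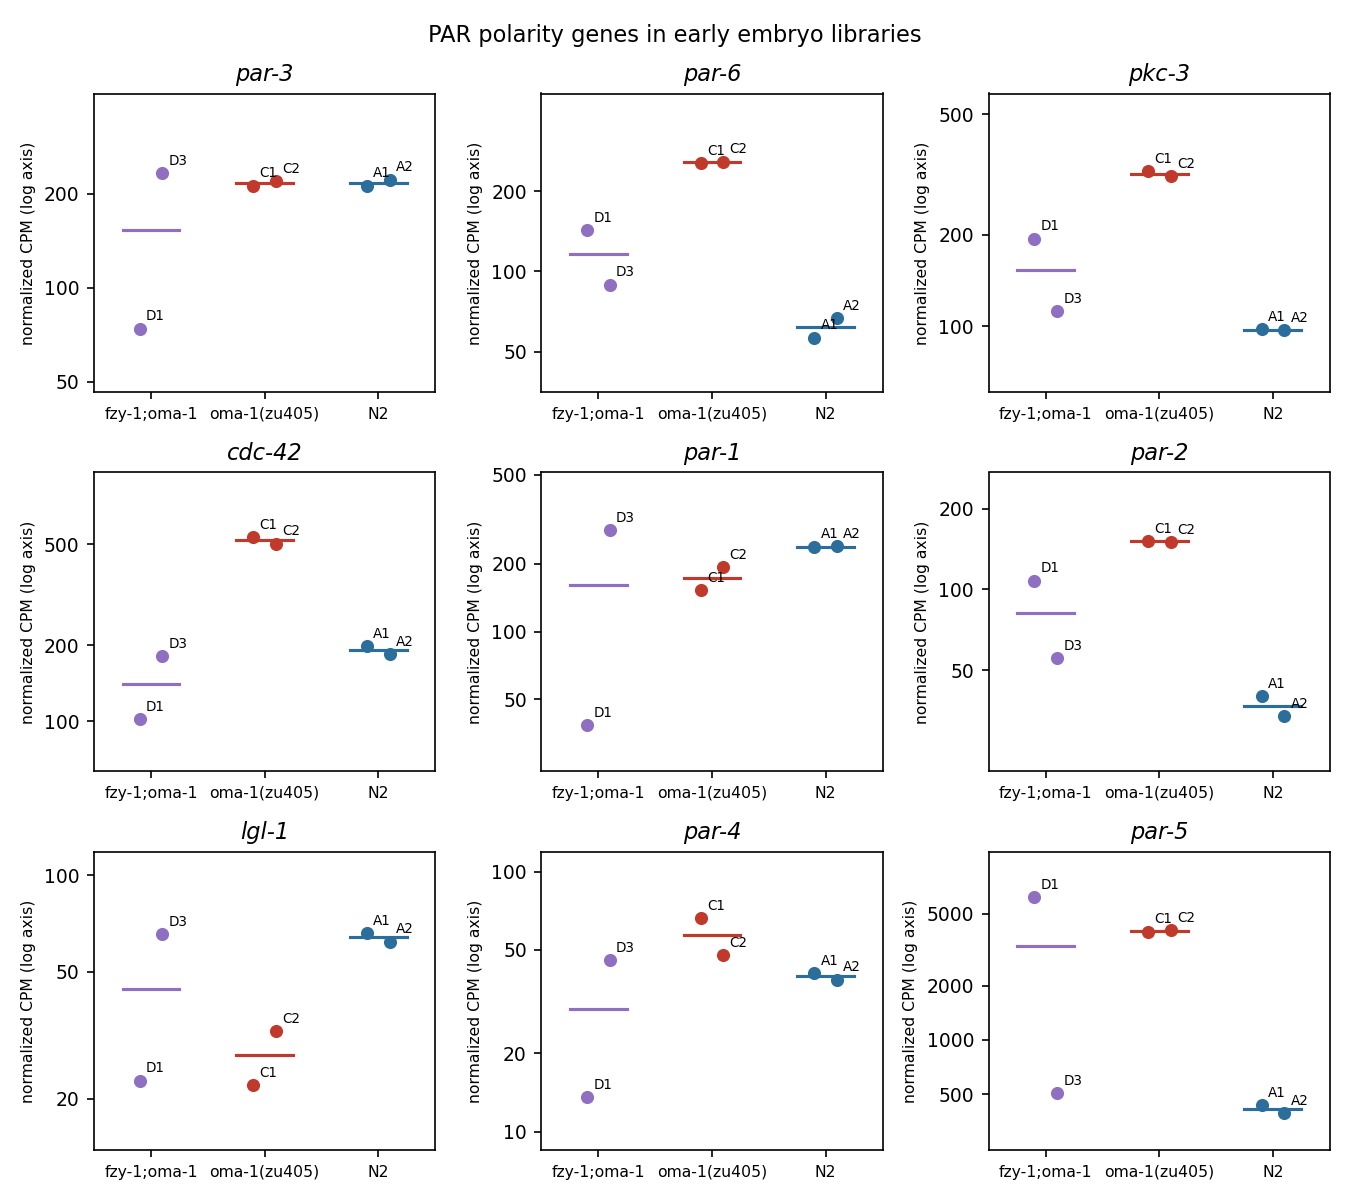
Normalized CPM (TMM scaling, log axes whose ranges differ between panels) of each PAR gene in the 6 embryo libraries, the double mutant (written fzy-1;oma-1) at the left, then *oma-1(zu405)* and N2; points are libraries and bars are group means. The libraries C1 and C2 lie above A1 and A2 for *par-6*, *pkc-3*, *cdc-42*, *par-2*, *par-4* and *par-5*, while D3 lies near N2 and D1 apart from it.

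In *oma-1(zu405)* embryos against N2, *par-5*, *par-6*, *par-2* and *pkc-3* mRNAs were higher under both scalings, *par-5* by far the most, and *lgl-1* and *par-1* mRNAs were lower under both. The calls for *cdc-42*, *par-3* and *par-4* depended on the scaling. Of the 9 genes, 6 rose and 2 fell under TMM scaling (edgeR's quasi-likelihood test, Benjamini-Hochberg adjusted p under 0.05). Over all 12520 genes tested, 34.8% were higher and 42.4% lower, 77.2% in all, so a PAR gene that changed is no exception here. Their median log2 fold change was 1.36, against -0.24 over all genes tested. Under total counts the split was 4 higher and 4 lower, with medians of 0.10 for the PAR genes and -1.51 for all genes. The share of all genes called is not given on that scale, so this split is not read as particular to the PAR genes. Relative to the median of all genes, 7 lay above and 2 (*par-1* and *lgl-1*) below under both scalings. A change of scaling shifts all genes by nearly the same amount, so this split could hardly differ and is no second piece of evidence.

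Within the anterior complex, *par-6*, *pkc-3* and *cdc-42* rose under TMM scaling and *par-3* did not pass. *par-6* mRNA, encoding the PDZ and PB1 adaptor that binds PKC-3, measured 255 and 258 CPM in *oma-1(zu405)* embryos, against 56.5 and 67 CPM in N2. This is a log2 fold change of 1.98 ± 0.15 (SE, as for every fold change below), with an adjusted p of 2e-12 by edgeR, and under total counts it was 0.72 ± 0.13 (edgeR adjusted p = 1.9e-06). *pkc-3*, the kinase of the complex, measured 325 and 312 CPM in *oma-1(zu405)* and 97.9 and 96.9 CPM in N2. Its log2 fold change was 1.63 ± 0.15 (edgeR adjusted p = 5.4e-11), and 0.37 ± 0.12 under total counts (edgeR adjusted p = 0.0048). For both genes the normalized levels of the groups did not overlap. *cdc-42* measured 532 and 502 CPM in *oma-1(zu405)* and 198 and 184 CPM in N2, a log2 fold change of 1.36 ± 0.15 (edgeR adjusted p = 2.4e-09) that shrank to 0.10 ± 0.12 under total counts and was then not called (edgeR adjusted p = 0.43). *par-3*, the scaffold on which the complex assembles, measured 213 and 220 CPM in *oma-1(zu405)*, against 213 and 222 CPM in N2. The groups overlapped, and the log2 fold change was -0.09 ± 0.14 (edgeR adjusted p = 0.56). Under total counts *par-3* was lower, at -1.35 ± 0.12 (edgeR adjusted p = 7e-13), close to the median of all genes on that scale.

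The posterior genes moved in opposite directions. *par-2*, which protects the posterior cortex from PKC-3, measured 152 and 151 CPM in *oma-1(zu405)* embryos and 39.9 and 33.6 CPM in N2, a 3.89-fold increase (log2 fold change 1.96 ± 0.16, edgeR adjusted p = 4e-12). *lgl-1*, a cortical substrate of PKC-3 that acts in parallel with *par-2*, measured 22.1 and 32.6 CPM in *oma-1(zu405)* and 66 and 62 CPM in N2. It fell by 1.37 ± 0.18 on the log2 scale (edgeR adjusted p = 9.4e-08), and its groups did not overlap. *par-1*, the kinase of the posterior domain that acts on the cytoplasmic MEX-5 and MEX-6, measured 152 and 194 CPM in *oma-1(zu405)* and 239 CPM in both N2 libraries. It fell by 0.57 ± 0.14 on the log2 scale (edgeR adjusted p = 0.00085). Under total counts *par-2* was still higher (0.70 ± 0.13) and *lgl-1* and *par-1* still lower (-2.65 ± 0.16 and -1.82 ± 0.13), each with an edgeR adjusted p under 0.05.

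Of the genes that act at both poles, *par-5* showed the largest difference of the 9. It measured 3997 and 4072 CPM in *oma-1(zu405)* embryos, against 433 and 391 CPM in N2, on 49673 and 10981 counts in C1 and C2 and 14101 and 4073 counts in A1 and A2. The log2 fold change was 3.21 ± 0.17 (edgeR adjusted p = 3.3e-16), a 9.24-fold difference. It was 1 of 9 PAR genes past the study's threshold of a log2 fold change of 2, which 11.6% of all genes tested passed upward, but under total counts it was 1.95 ± 0.13 and just short of that threshold (edgeR adjusted p = 1.3e-16). Its paralog *ftt-2* measured 1514 and 1626 CPM in *oma-1(zu405)* and 543 and 623 CPM in N2, a smaller log2 fold change of 1.34 ± 0.15, which was 0.091 ± 0.13 under total counts and was then not called (edgeR adjusted p = 0.50). *par-4*, the LKB1 kinase of the worm, measured 66.4 and 47.8 CPM in *oma-1(zu405)* and 40.8 and 38.4 CPM in N2. Its log2 fold change of 0.50 ± 0.18 (edgeR adjusted p = 0.016) turned into -0.76 ± 0.15 under total counts (edgeR adjusted p = 1.9e-05). It was also not called without C1 (0.13), without A2 (0.26) or without A1 (0.37), so its direction is not settled by these data. When all 6 embryo libraries entered a joint fit, so that the spread of the double mutant applied to every group, 0 of the 9 genes passed for *oma-1(zu405)* against N2. The share of all genes that passed in that fit is not given, so this count says nothing particular about the PAR genes.

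**Figure D2:**
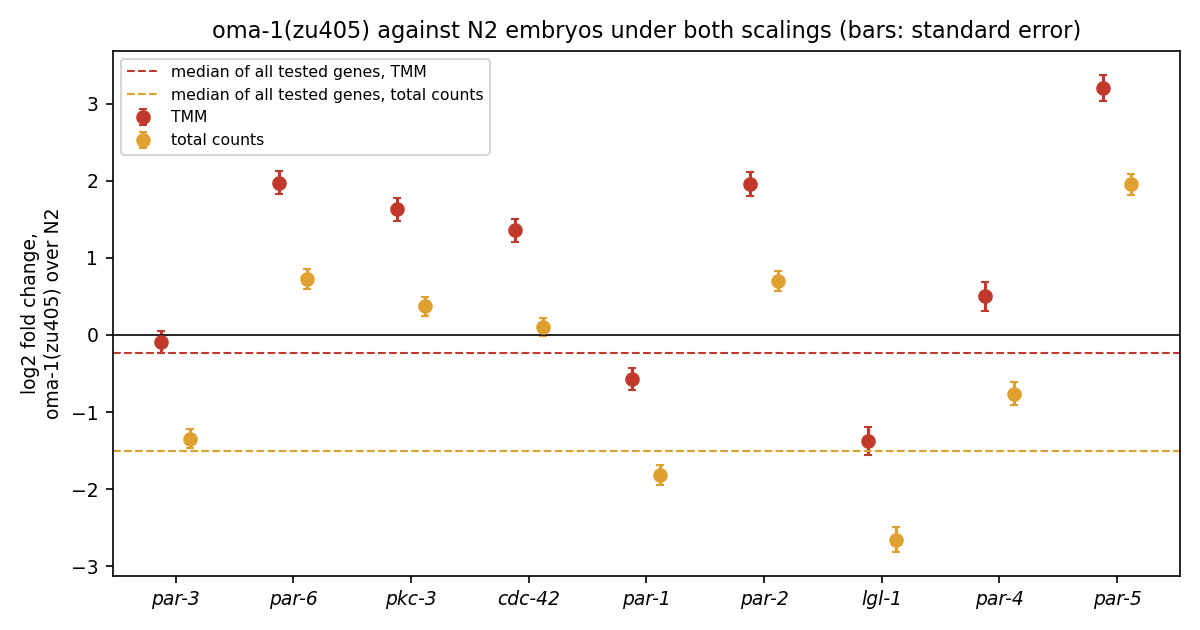
Log2 fold change of each PAR gene in *oma-1(zu405)* over N2 embryos (points, with the standard error of the edgeR fit) under TMM scaling and under total counts; dashed lines are the median of all tested genes on each scale, -0.24 and -1.51. The order of the 9 genes, with *par-5* highest and *lgl-1* lowest, is the same because a change of scaling shifts all genes by nearly the same amount. *par-4* changes sign.

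The ratio of the counts of 2 genes within a library does not depend on how libraries are scaled. It compares mRNAs only, as no PAR protein was measured (lengths were not taken into account, so only differences between libraries are read). The ratio of *par-6* to *par-3* was 1.2 and 1.17 in *oma-1(zu405)*, against 0.265 and 0.301 in N2. The ratio of *pkc-3* to *par-3* was 1.53 and 1.42 in *oma-1(zu405)*, against 0.46 and 0.436 in N2. So *par-6* and *pkc-3* mRNAs moved together relative to that of *par-3*. Between themselves the ratio of *pkc-3* to *par-6* differed less, at 1.27 and 1.21 in *oma-1(zu405)* and 1.73 and 1.45 in N2. On the posterior side the ratio of *par-2* to *par-1* was 0.996 and 0.776 in *oma-1(zu405)*, against 0.167 and 0.14 in N2, and that of *par-2* to *lgl-1* was 6.86 and 4.61, against 0.605 and 0.542 in N2. Between the anterior and posterior groups, the ratio of *par-6* to *par-2* was 1.68 and 1.71 in *oma-1(zu405)* and 1.42 and 1.99 in N2. The mRNAs of these opponents thus kept a similar ratio. Meanwhile *par-6* shifted against *par-3*, and *par-2* against *par-1* and *lgl-1*. The ratio of *par-5* to *par-1* was 26.2 and 21 in *oma-1(zu405)*, against 1.81 and 1.63 in N2. With 2 libraries against 2, an exact two-sided permutation test cannot go below 0.333, so these ratios are a description.

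**Figure D3:**
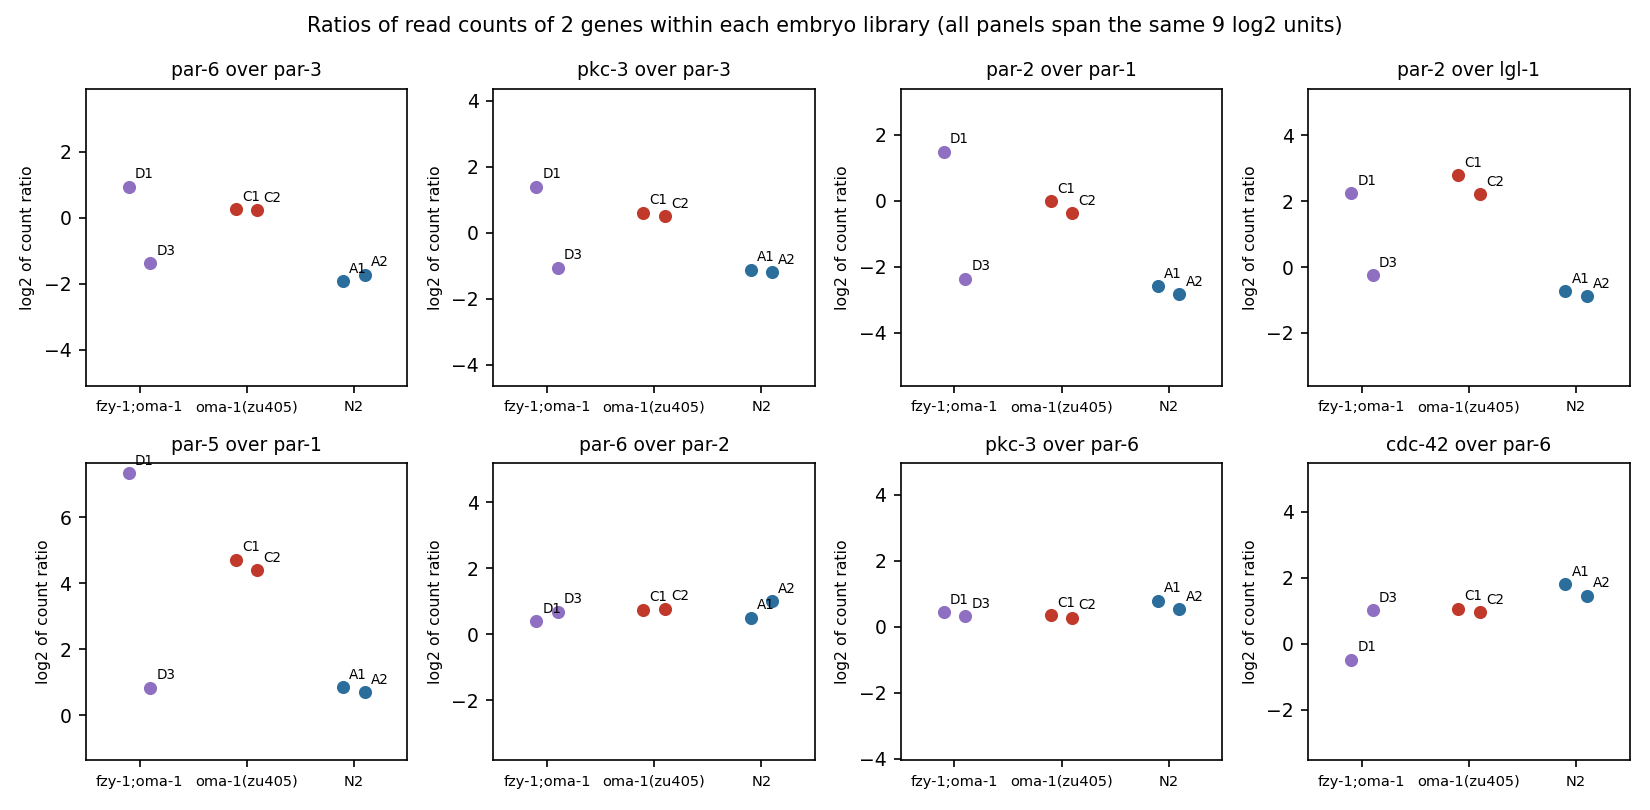
Log2 of the ratio of raw counts of 2 PAR genes within each embryo library, the double mutant (fzy-1;oma-1) at the left, then *oma-1(zu405)* and N2; points are libraries, and each panel spans 9 log2 units. For *par-6* over *par-3* (1.93 in D1 and 0.383 in D3 before the logarithm) and *par-2* over *par-1* (2.82 and 0.195), D1 lies on the side of *oma-1(zu405)* and D3 near N2, while *par-6* over *par-2* is similar in all 6 libraries.

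Of 30 genes that act with the PAR genes in zygotic polarity, cortical contractility and spindle positioning, 25 rose and 1 fell in *oma-1(zu405)* against N2 under TMM scaling (edgeR, adjusted p under 0.05). Of all genes tested, 34.8% were higher and 42.4% lower. Under total counts 13 of the 30 were higher and 12 lower, with medians of 0.081 for the 30 and -1.51 for all genes. The share of all genes called is not given on that scale. Under TMM scaling the median log2 fold change of the 30 was 1.33, close to the 1.36 of the PAR genes, against -0.24 for all genes. The highest were *mex-5* at 3.14 and *mex-6* at 2.76 (1.90 and 1.51 under total counts), whose products form a cytoplasmic gradient under the control of PAR-1. The lowest that passed were *mel-11*, the myosin phosphatase subunit, at -0.43 (-1.69 under total counts), and the non-muscle myosin *nmy-2*, at 0.42, which turned to -0.84 under total counts. Markers of maternal transcripts moved with these results. The summed level of 10 maternal genes, all detected, was 9490 and 9823 CPM in *oma-1(zu405)*, against 1081 and 1086 CPM in N2, and it was 4039 CPM in D1 and 1454 CPM in D3. In D1 *mex-3* (61.1 CPM, against 101 and 111 in N2) and *glp-1* (30.2 CPM, against 80.5 and 76.4) were lower than in N2. The other members were higher there. The summed level of 12 zygotic lineage genes was 391 and 378 CPM in *oma-1(zu405)*, against 293 and 296 CPM in N2. *pha-4* alone measured 227 and 217 CPM, against 154 and 168 CPM in N2. *unc-120* went the other way (27.3 and 31.9 CPM, against 63.2 and 57.5), *elt-2* overlapped, and the other members were higher. Both sums were taken under TMM scaling only. As the TMM factors differ between the genotypes, the direction of the zygotic sum depends on that scaling. The part of these markers in the PAR results was not tested, and fewer cells that hold a transcript and less transcript per cell cannot be told apart in such bulk samples.

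No PAR gene passed the test between the double mutant and N2, and neither did any other of the 12684 genes tested (0% called). At an unadjusted p under 0.05 edgeR gave 506 genes, none of them a PAR gene, and DESeq2 called 0 of the 9. The values of the libraries show what the mean hides. *par-5* measured 6174 CPM in D1 and 507 CPM in D3, against 433 and 391 CPM in N2, so D1 lay above both *oma-1(zu405)* libraries and D3 0.30 log2 units above the N2 mean. The fitted log2 fold change was 2.95 ± 1.64 (edgeR adjusted p = 0.64). *par-2* measured 108 CPM in D1 and 55.3 CPM in D3, against 39.9 and 33.6 CPM in N2, and *par-6* measured 142.5 CPM in D1 and 89.3 CPM in D3, against 56.5 and 67 CPM in N2. Under TMM scaling both double mutant libraries lay above both N2 libraries for *par-2*, *par-6*, *pkc-3* and *par-5*, though their spread was too large for a call. Under total counts this held only for *par-5*. D1 then lay below both N2 libraries for *par-2* (48.6 CPM, against 69.1 and 58.6), *par-6* (64.2, against 97.8 and 117) and *pkc-3* (87.5, against 170 and 169). The share of all genes with such orders of libraries was not counted, so they are not read as particular to the PAR genes. *pkc-3* measured 194 CPM in D1 and 112 CPM in D3, against 97.9 and 96.9 CPM in N2 (log2 fold change 0.61 ± 0.54, edgeR adjusted p = 0.69), and under total counts the differences of *par-6* and *pkc-3* changed sign (-0.09 and -0.38).

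The remaining 5 genes were low in D1 and near N2 in D3. *par-1* measured 38.2 CPM in D1 on 62 counts and 284 CPM in D3, against 239 CPM in both N2 libraries. *par-3* measured 74 CPM in D1 and 233 CPM in D3, against 213 and 222 CPM in N2. *lgl-1* measured 22.8 CPM in D1 and 65.4 CPM in D3, against 66 and 62 CPM in N2. D3 thus differed from the N2 mean by 0.25, 0.10 and 0.03 log2 units for these 3 genes, where D1 differed by -2.61, -1.54 and -1.45. *par-4* measured 13.6 CPM in D1 on 22 counts and 45.7 CPM in D3, against 40.8 and 38.4 CPM in N2, and *cdc-42* measured 102 CPM in D1 and 180 CPM in D3, against 198 and 184 CPM in N2. With D1 left out, D3 alone gave log2 fold changes against N2 of 0.59 for *par-2* and 0.55 for *par-6*. With D3 left out, D1 alone gave *par-5* at 3.86, *par-2* at 1.49, *par-6* at 1.17 and *pkc-3* at 0.95. It also gave *par-1* at -2.69, *par-3* at -1.60, *par-4* at -1.59, *lgl-1* at -1.54 and *cdc-42* at -0.95. Such differences are common in D1, which lay within 1 log2 unit of the N2 mean for 38.2% of all genes. In such fits the lone library is assumed to vary like those of the other group. Both comparisons against N2 share its 2 libraries, so their values stand side by side and were not correlated.

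In the double mutant against *oma-1(zu405)*, again none of the 9 genes passed (0% called of 10477 genes tested, with 861 at an unadjusted p under 0.05, none a PAR gene, and 0 PAR genes by DESeq2). The lowest unadjusted p was that of *cdc-42*, which measured 102 and 180 CPM in the double mutant, against 532 and 502 CPM in *oma-1(zu405)*, a log2 fold change of -1.70 ± 0.67 (edgeR adjusted p = 0.58). Under TMM scaling both double mutant libraries also lay below both *oma-1(zu405)* libraries for *par-2* (-0.74 ± 0.57), *par-6* (-0.99 ± 0.56), *pkc-3* (-0.90 ± 0.60) and *par-4* (-0.74 ± 0.72). Under total counts *par-4* in D3 lay above both (70.7 CPM, against 46.5 and 32.4), and the others kept their order. Here too the share of all genes with such an order was not counted. *par-5* measured 6174 CPM in D1 and 507 CPM in D3, one above and one below the 3997 and 4072 CPM of *oma-1(zu405)*. With D1 left out, the log2 fold changes included 1.52 for *lgl-1*, 0.92 for *par-1*, -1.26 for *par-2* and -2.80 for *par-5*. With D3 left out, they included 0.83 for *par-5*, -0.50 for *pkc-3*, -1.96 for *par-1* and -2.13 for *cdc-42*. *par-5* and *par-1* thus took opposite directions with 1 or the other double mutant library.

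In total RNA of young adults, the input of the RIP-seq, *par-5* and *cdc-42* were the highest PAR mRNAs, as they were in N2 embryos. *par-6* came next here, while in N2 embryos it was not separated from *pkc-3* and *par-3*. The values are RPKM (read density corrected for gene length and library size) computed by the authors, so they can be set side by side between genes. Over the 6 input libraries *par-5* lay between 185 and 245 RPKM (median 226), *cdc-42* between 117 and 199 (median 146) and *par-6* between 43.3 and 100 (median 62.9). *par-3* had a median of 30.7, *par-2* of 22.6, *pkc-3* of 17.1 and *par-1* of 14.2 RPKM. *par-2*, last in N2 embryos, thus had a higher median than *pkc-3* and *par-1* here, although the ranges of the 3 genes overlapped. The lowest were *lgl-1*, with a median of 2.02 RPKM, and *par-4*, at 0.657, which passed the filter of 1 RPKM in at least 2 libraries in no comparison and was therefore not tested, so 8 of the 9 genes were. None of the 8 passed in the input of oma-1ts-gfp against oma-1-gfp (9.93% of 10946 genes called), of fzy-1;oma-1ts-gfp against oma-1-gfp (7.4%) or of fzy-1;oma-1ts-gfp against oma-1ts-gfp (20.8%), by limma on log2(RPKM + 1) with Benjamini-Hochberg adjustment. At an unadjusted p under 0.05 there were 1, 1 and 3 of the 8. The lowest adjusted p belonged to *par-1*, at 19.4 and 14.8 RPKM in fzy-1;oma-1ts-gfp input and 11.3 RPKM in both oma-1ts-gfp inputs (log2 difference 0.54 ± 0.17, limma adjusted p = 0.063). Without fzy-1;oma-1ts-gfp input 1, *pkc-3* passed against both strains (0.80 and 0.66) and *par-6* and *par-2* passed lower against oma-1-gfp (-0.89 and -0.82), and without fzy-1;oma-1ts-gfp input 2, *par-1* passed against oma-1ts-gfp (0.73).

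In RNA recovered with wild-type OMA-1 from oma-1-gfp animals, no PAR mRNA rose above its input and 3 of 8 fell (limma on log2(RPKM + 1), adjusted p under 0.05), where 11.8% of 9743 genes were higher and 27.7% lower. The fold changes below are on the log2(RPKM + 1) scale, which understates those of low genes. *par-5* measured 118 and 58 RPKM in the RIP, against 219 and 233 RPKM in the input, a log2 change of -1.44 ± 0.37 (limma adjusted p = 0.015). *cdc-42* measured 59.7 and 70.1 RPKM in the RIP and 199 and 138 RPKM in the input (-1.35 ± 0.30, limma adjusted p = 0.009). *par-1* measured 7.09 and 6.49 RPKM in the RIP and 15.7 and 13.5 RPKM in the input (-0.999 ± 0.268, limma adjusted p = 0.018). For these 3 genes every RIP library lay below every input library, and all genes tested had a median of -0.37. *par-3* measured 11.5 and 23.2 RPKM in the RIP and 32.8 and 31.1 RPKM in the input (-0.92 ± 0.34, limma adjusted p = 0.056), and *par-6* measured 44.7 and 51.2 RPKM in the RIP and 100 and 66 RPKM in the input (-0.75 ± 0.30, limma adjusted p = 0.072). *pkc-3* (-0.43), *par-2* (-0.37) and *lgl-1* (-0.07) did not pass, and for *par-2* and *lgl-1* the RIP and input libraries overlapped. The count rests on single libraries, since it was 0 without input 1, 1 without input 2, 6 without RIP 1 and 5 without RIP 2. When libraries were scaled to the same median, *lgl-1* turned to 0.23 and 2 genes passed.

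In oma-1ts-gfp animals, where the mutant OMA-1 was pulled down, *par-2*, *par-6* and *lgl-1* rose in the RIP above their input, and 4 PAR mRNAs fell, where 15.4% of 9761 genes were higher and 39% lower. *par-2* measured 43.4 and 47.3 RPKM in the RIP, against 22.6 and 21.4 RPKM in the input, a 2.01-fold difference (log2 change 1.01 ± 0.13, limma adjusted p = 0.00061). *par-6* measured 77.9 and 84.9 RPKM in the RIP and 59.8 and 52.3 RPKM in the input (0.53 ± 0.13, limma adjusted p = 0.0096). *lgl-1* measured 2.49 and 2.86 RPKM in the RIP and 1.06 and 1.46 RPKM in the input (0.71 ± 0.23, limma adjusted p = 0.036). The 3 genes sit on opposite sides of the cortex, and in each every RIP library lay above every input library. *par-5* measured 78.5 and 76.3 RPKM in the RIP, against 194 and 185 RPKM in the input (-1.28 ± 0.11, limma adjusted p = 0.00014), and *par-1* measured 4.15 and 5.29 RPKM, against 11.3 RPKM in both inputs (-1.11 ± 0.19, limma adjusted p = 0.0025). *cdc-42* measured 78.7 and 90.7 RPKM in the RIP and 119 and 117 RPKM in the input (-0.47 ± 0.12, limma adjusted p = 0.014), and *par-3* measured 19.7 and 23.7 RPKM and 30.3 and 30.2 RPKM (-0.47 ± 0.14, limma adjusted p = 0.026). *pkc-3*, at 13 and 13.9 RPKM in the RIP and 17.5 and 16.8 RPKM in the input, did not pass (-0.33 ± 0.15, limma adjusted p = 0.088) and turned to 0.04 when libraries were scaled to the same median, where *par-3* and *cdc-42*, both at about -0.1, no longer passed. *par-2*, *par-5* and *par-1* passed under every alternative run for this strain, while without input 1 the count was 4 (2 higher), without *lgl-1* (0.58), *par-3* and *cdc-42*, and without input 2 it was 3 (1 higher), without *par-6* (0.44) as well.

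Markers of other tissues and of the germ line also differed in the oma-1ts-gfp RIP. The summed level of 8 genes of the adult soma (yolk proteins, muscle myosins, collagens and an actin), all detected in every library, was 634 and 797 RPKM there, against 2831 and 2883 RPKM in its input. In fzy-1;oma-1ts-gfp the same sum was 4010 and 4477 RPKM in the RIP and 3398 and 3403 RPKM in the input, and in oma-1-gfp it was 3975 and 3082 RPKM in the RIP and 3071 and 3225 RPKM in the input. The sums in these 2 strains were carried by the actin gene *act-4*, at 2524 and 3209 RPKM in the RIP and 725 and 561 RPKM in the input of fzy-1;oma-1ts-gfp. Both RIP libraries lay below both inputs for 6 of the 8 somatic genes in fzy-1;oma-1ts-gfp, 8 in oma-1ts-gfp and 5 in oma-1-gfp, the yolk and collagen genes among them in every strain. Without *act-4*, a choice made after its values were seen, the sum was 1486 and 1267 RPKM in the RIP and 2673 and 2842 RPKM in the input of fzy-1;oma-1ts-gfp. It was 512 and 650.0 RPKM in the RIP and 2386 and 2456 RPKM in the input of oma-1ts-gfp, and 1415 and 871 RPKM in the RIP and 2450 and 2543 RPKM in the input of oma-1-gfp. The oma-1ts-gfp RIP thus stayed lowest with and without that gene. The summed level of 10 maternal genes was between 3841 and 4527 RPKM in all 6 RIP libraries, but its members moved in opposite directions. *mex-5*, *mex-3* and *spn-4* were higher in both oma-1ts-gfp RIP libraries than in the other 4, and *oma-1*, *oma-2*, *glp-1* and *gld-1* were lower. Sperm genes differed between strains in the input, with a sum of 537 and 259 RPKM in fzy-1;oma-1ts-gfp, 59.7 and 58.5 RPKM in oma-1ts-gfp and 11.7 and 7.14 RPKM in oma-1-gfp. The part of these markers in the PAR values was not tested. The bait mRNA was recovered in every strain, *oma-1* at 300 and 287 RPKM in the RIP of fzy-1;oma-1ts-gfp, 137 and 162 in that of oma-1ts-gfp and 330 and 321 in that of oma-1-gfp, against inputs of 70 to 121 RPKM.

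**Figure D4:**
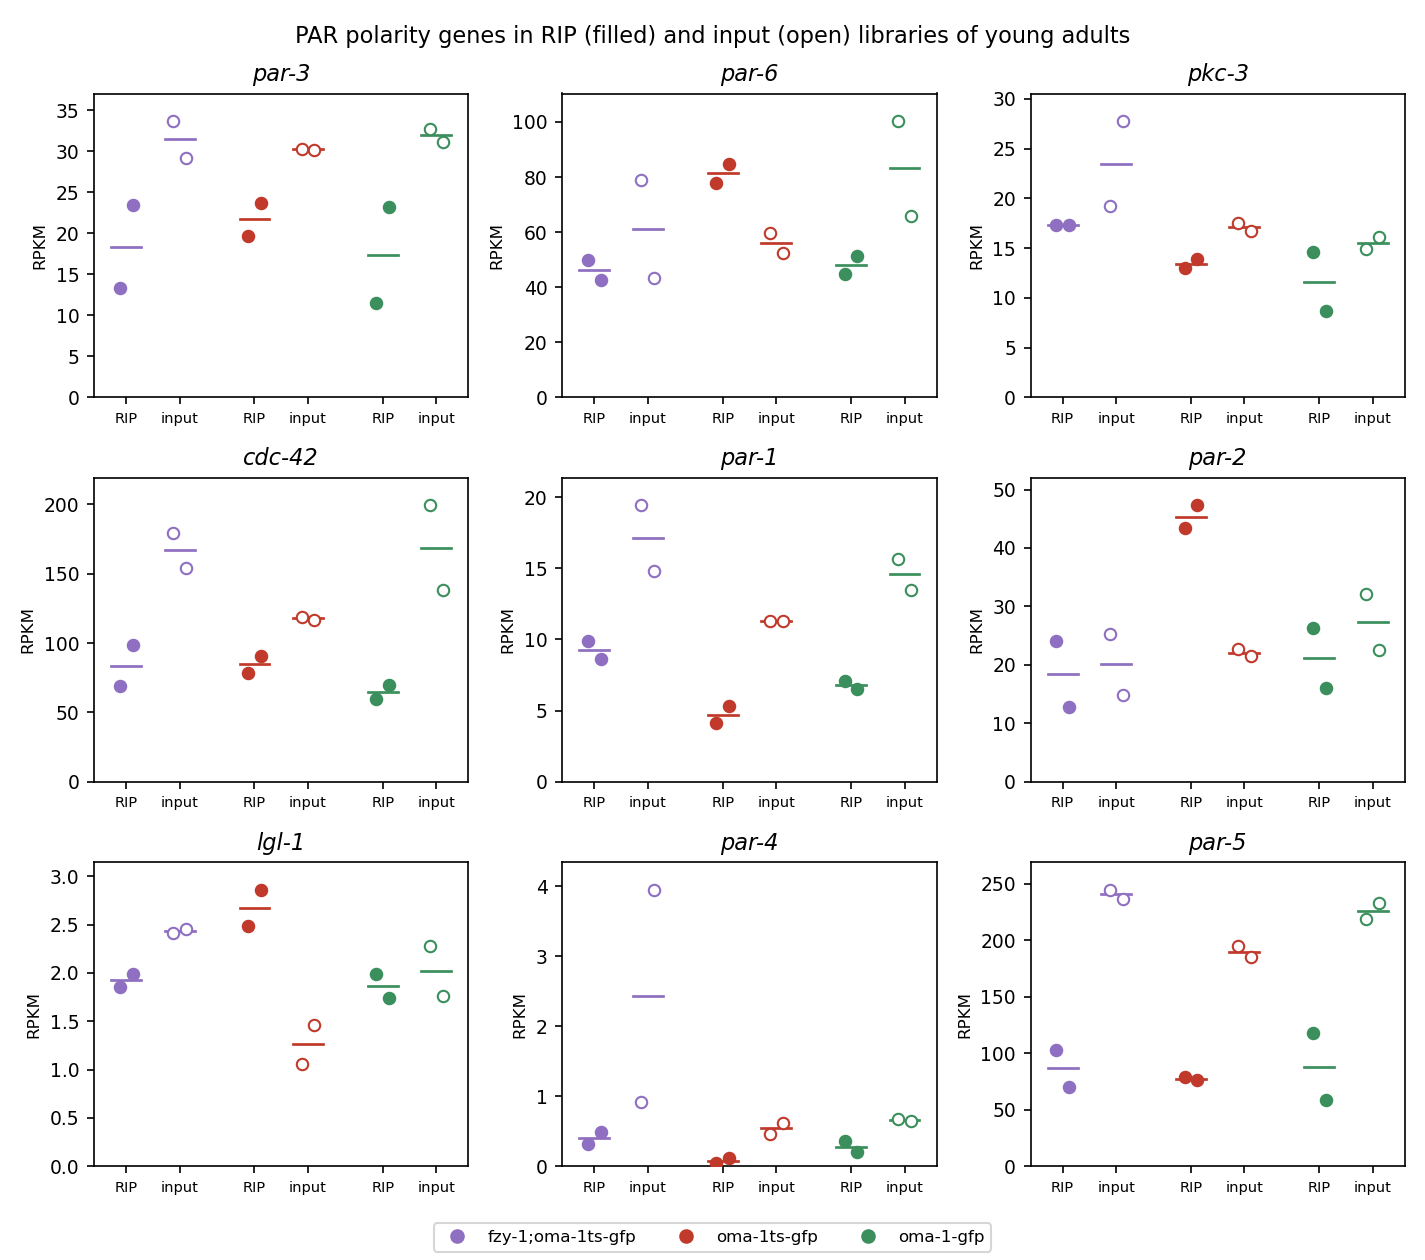
RPKM of each PAR gene in the RIP (filled) and input (open) libraries of fzy-1;oma-1ts-gfp, oma-1ts-gfp and oma-1-gfp young adults, from left to right; points are libraries, bars are means, and vertical axes start at 0 and differ between panels. The 2 oma-1ts-gfp RIP libraries lie above all other libraries for *par-2* (43.4 and 47.3 RPKM), and RIP lies below input in all 3 strains for *par-5* and *par-1*.

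In fzy-1;oma-1ts-gfp animals, which carry the *fzy-1* mutation beside the mutant OMA-1, no PAR mRNA rose in the RIP and 3 fell, the same 3 as with wild-type OMA-1, where 11.2% of 10849 genes were higher and 28.2% lower. *par-5* measured 103 and 70.2 RPKM in the RIP, against 245 and 237 RPKM in the input (-1.49 ± 0.33, limma adjusted p = 0.0073). *cdc-42* measured 69 and 98.3 RPKM in the RIP and 179 and 154 RPKM in the input (-1.01 ± 0.32, limma adjusted p = 0.033), and *par-1* measured 9.9 and 8.65 RPKM and 19.4 and 14.8 RPKM (-0.81 ± 0.28, limma adjusted p = 0.045). The genes that rose in oma-1ts-gfp did not pass here. *par-2* measured 24.1 and 12.7 RPKM in the RIP and 25.3 and 14.8 RPKM in the input (-0.14 ± 0.37, limma adjusted p = 0.78), *par-6* measured 49.8 and 42.5 RPKM and 78.8 and 43.3 RPKM (-0.34 ± 0.34, limma adjusted p = 0.44), and *lgl-1* measured 1.85 and 1.99 RPKM and 2.42 and 2.46 RPKM (-0.23 ± 0.27, limma adjusted p = 0.51). For *par-2* and *par-6* the library numbered 1 was higher than the one numbered 2 in both RIP and input, so the groups overlapped. Scaled to the same median, *par-2* (0.23), *par-6* (0.03) and *lgl-1* (0.14) changed sign and 1 gene, *par-5*, passed. *par-3* (-0.79 ± 0.32) and *pkc-3* (-0.39 ± 0.29) did not pass. The median over the 8 PAR genes was -0.59 in fzy-1;oma-1ts-gfp, -0.40 in oma-1ts-gfp and -0.84 in oma-1-gfp, against -0.41, -0.34 and -0.37 over all genes tested in the same strains. The number of PAR genes that passed in fzy-1;oma-1ts-gfp was 0 without input 1 or without input 2 and 1 without RIP 1.

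The difference of the enrichment between strains was tested directly in one fit of all 12 libraries, and no PAR gene passed. For oma-1ts-gfp against oma-1-gfp, 1.27% of 11736 genes were higher and 3.87% lower, and 4 of the 8 PAR genes had an unadjusted p under 0.05, as had 2432 genes in all. The enrichment of *par-6* was higher by 1.28 ± 0.40 (limma adjusted p = 0.087), that of *par-2* by 1.38 ± 0.47 (limma adjusted p = 0.12), that of *cdc-42* by 0.87 ± 0.34 (limma adjusted p = 0.17) and that of *lgl-1* by 0.78 ± 0.31 (limma adjusted p = 0.17). Those of *par-1* (-0.11 ± 0.30), *par-5* (0.16 ± 0.42) and *pkc-3* (0.10 ± 0.35) had standard errors larger than the difference. For fzy-1;oma-1ts-gfp against oma-1ts-gfp, 5.96% of genes were higher and 3.74% lower, and 3 PAR genes had an unadjusted p under 0.05 (3089 genes in all). The enrichment of *lgl-1* differed by -0.94 ± 0.31 (limma adjusted p = 0.075), that of *par-2* by -1.14 ± 0.47 (limma adjusted p = 0.15) and that of *par-6* by -0.87 ± 0.40 (limma adjusted p = 0.19). The comparisons share the oma-1ts-gfp libraries, so the opposite signs are not independent of each other. That *par-2*, *par-6* and *lgl-1* passed in oma-1ts-gfp and in neither other strain is therefore not shown to be a difference between strains.

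**Figure D5:**
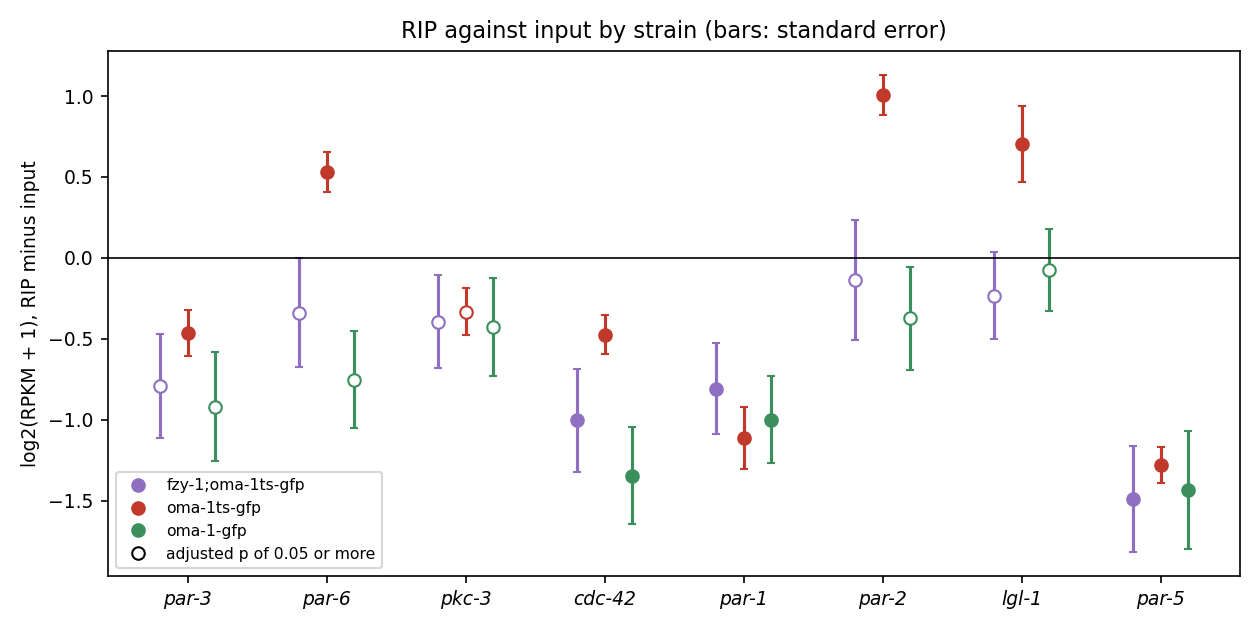
RIP minus input on the log2(RPKM + 1) scale for the 8 tested PAR genes in fzy-1;oma-1ts-gfp, oma-1ts-gfp and oma-1-gfp, from left to right (points with the standard error of the limma fit; filled where the adjusted p was under 0.05). *par-2* (1.01), *lgl-1* (0.71) and *par-6* (0.53) lie above 0 in oma-1ts-gfp, while *par-5* lies between -1.49 and -1.28 in all 3 strains.

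Among the 30 partner genes more fell than rose in the RIP of each strain, as among all genes tested. Of the partners tested, 11 of 29 fell and none rose in fzy-1;oma-1ts-gfp, 18 of 28 fell and 3 rose in oma-1ts-gfp, and 10 of 28 fell and none rose in oma-1-gfp (limma, adjusted p under 0.05). Of all genes tested in these strains, 28.2%, 39% and 27.7% fell and 11.2%, 15.4% and 11.8% rose. Scaled to the same median, 5, 9 and 8 partners fell and 0, 4 and 0 rose. Shares of all genes called are not given under that scaling, here or for the input below. The 3 that rose in oma-1ts-gfp were *air-1*, the Aurora A kinase that acts in the onset of polarity, at 1.12, *mex-6* at 0.98 and *mex-5* at 0.48. *csnk-1*, a casein kinase, was among the lowest in each strain, at -1.39 in fzy-1;oma-1ts-gfp, -2.01 in oma-1ts-gfp and -1.58 in oma-1-gfp. *air-1* was the 1 partner whose enrichment differed between strains, by 1.76 for oma-1ts-gfp against oma-1-gfp (limma adjusted p = 0.005) and by -1.92 for fzy-1;oma-1ts-gfp against oma-1ts-gfp (limma adjusted p = 0.0023). In the input, 7 of 29 partners were higher in fzy-1;oma-1ts-gfp than in oma-1ts-gfp, where 20.8% of all genes were called, and scaled to the same median 3 were. In oma-1ts-gfp 3 of 29 were lower than in oma-1-gfp under both scalings, where 9.93% of all genes were called.

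*par-4* stayed near the lower end of the RIP-seq values in nearly every library. It measured 0.308 and 0.481 RPKM in the RIP and 0.91 and 3.95 RPKM in the input of fzy-1;oma-1ts-gfp, 0.0408 and 0.11 RPKM and 0.463 and 0.615 RPKM in oma-1ts-gfp, and 0.351 and 0.207 RPKM and 0.673 and 0.64 RPKM in oma-1-gfp. RIP lay below input in each strain, and 1 input library, fzy-1;oma-1ts-gfp 2, stood far above the rest. The RIP-seq files hold no read counts, so the precision of such low values is unknown.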

How the data were processed

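The authors aligned the embryo reads with HISAT2 2.0.5, counted them per gene with HTSeq 0.6.0 and deposited whole-number counts without normalization (tools from the submitters' processing notes, which also name CASAVA 1.4; the genome build and strand setting are not given in the sources used here). The RIP-seq values deposited by the authors are RPKM on a scale 1000 times larger and were divided by 1000; those files list only genes above 0, and other genes were set to 0. The authors' own fold changes and p-values were left aside, as were 32 more per-sample columns. The letters of the embryo columns were tied to genotypes by the table that holds them, as replicates without numbers. The 259 rows named by a transcript held 0 counts and were left out.

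For counts, the quasi-likelihood test of edgeR 4.0.16 (R 4.3.3) was run with TMM factors in 1 fit per pair of genotypes, on genes reaching 10 counts in 2 or more libraries. RPKM values were tested with limma 3.58.1 (trend) on log2(RPKM + 1), on genes reaching 1 RPKM in 2 or more libraries. P-values were Benjamini-Hochberg adjusted over all genes tested, at 0.05. All 9 PAR genes were named throughout, and of the partner genes the 2 highest and 2 lowest past the threshold in the main comparisons. The PAR genes, the partners and the marker lists were chosen with earlier results of these data known. Positions come from the Ensembl annotation of WBcel235, matched by identifier. Alternatives were DESeq2 1.42.0, total counts, other filters and pseudocounts, scaling to the median, a replicate block, joint fits and leaving out each library. Shares of all genes called are given for the main fits only, so counts under the alternatives stand without them. The scripts were tested on simulated data. Figures were drawn with matplotlib 3.10.9.

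Whether replicate numbers pair RIP and input was checked by the correlation of deviations from the group means across genes, which was 0.27, 0.03 and 0.08 in fzy-1;oma-1ts-gfp, oma-1ts-gfp and oma-1-gfp, so the fits had no block. Depth was 3599426 to 18815357 counts per embryo library and is unknown for the RIP-seq.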

Additional observations from a re-analysis of the deposited data

How the results depend on the processing

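In embryos, the 8 calls for *oma-1(zu405)* against N2 became 7 without A1, without A2 or without C1 and 0 in one fit of all 6 libraries, and 8 under DESeq2 and both other filters. Under total counts *par-4* turned to -0.76. For the double mutant against N2, total counts turned *par-6* to -0.085 and *pkc-3* to -0.38. Leaving out 1 library moved the calls between 0 and 9, *par-1* between -2.69 and 0.26, *par-3* between -1.60 and 0.11, *par-4* between -1.59 and 0.21 and *lgl-1* between -1.54 and 0.037. For the double mutant against *oma-1(zu405)*, *par-1* was -0.15 with every gene kept and -0.10 in one fit of all 6 libraries, and *par-3* was 0.42 under total counts. Leaving out 1 library changed the calls there too, with *par-1* between -1.96 and 0.92, *par-3* between -1.33 and 0.31 and *par-5* between -2.80 and 0.83. No paired analysis was possible for embryos because their columns could not be tied to the numbered samples of the labels, and the digits in the column names were not used to pair libraries.

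In the RIP-seq, keeping every gene above 0 gave 0 calls in oma-1-gfp and 1 in fzy-1;oma-1ts-gfp, and one fit of all 12 libraries gave 4 in oma-1ts-gfp. Scaling to the same median gave 1 call in fzy-1;oma-1ts-gfp and turned *par-2* (0.23), *par-6* (0.034) and *lgl-1* (0.14) there, *lgl-1* in oma-1-gfp (0.23) and *pkc-3* in oma-1ts-gfp (0.038). In the input it turned *par-1* (-0.036), *par-5* (-0.15), *lgl-1* (-0.053) and *cdc-42* (-0.24) of fzy-1;oma-1ts-gfp against oma-1-gfp, and *par-3* (-0.18) and *par-6* (-0.17) against oma-1ts-gfp. Leaving out 1 library gave 0 to 3 calls in the RIP of fzy-1;oma-1ts-gfp, 3 to 8 in oma-1ts-gfp and 0 to 6 in oma-1-gfp. It moved *par-2* between -0.57 and 0.30 and *par-6* between -0.76 and 0.085 in fzy-1;oma-1ts-gfp and *lgl-1* between -0.20 and 0.050 in oma-1-gfp. For the difference of enrichment of oma-1ts-gfp against oma-1-gfp it moved *par-1* between -0.26 and 0.030, *par-3* between -0.022 and 0.93, *par-5* between -0.35 and 0.66 and *pkc-3* between -0.25 and 0.44. For fzy-1;oma-1ts-gfp against oma-1ts-gfp it moved *par-3* between -0.71 and 0.057, *par-5* between -0.48 and 0.060 and *pkc-3* between -0.32 and 0.19. In the input of fzy-1;oma-1ts-gfp against oma-1-gfp there were 0 to 3 calls, with *par-3* between -0.12 and 0.075 and *cdc-42* between -0.26 and 0.27. Against oma-1ts-gfp there were 0 to 1 calls, with *par-2* between -0.54 and 0.19, *par-3* between -0.046 and 0.15 and *par-6* between -0.36 and 0.49.

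With the replicate number as a block, *par-2* passed in both differences of enrichment (1.38 and -1.14, so 1 call each in place of 0) and *par-1* in the input of fzy-1;oma-1ts-gfp against oma-1ts-gfp (0.54, 1 call). *par-3* passed as lower in the RIP of fzy-1;oma-1ts-gfp (-0.79, 4 calls) and oma-1-gfp (-0.92, 4 calls). The block changed no other call, and RIP and input share only a number. The causes were not tested.

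Depth sets limits. *par-4* and *lgl-1* had 22 and 37 counts in D1, and in the RIP-seq both lay near or below the filter, with unknown depth. Each group held 2 libraries, and D1 and D3 lay apart.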

Other observations

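Over all 18 libraries, embryo and RIP-seq levels were each centred within their experiment, and the gene whose pattern was most like that of each PAR gene was looked up among 9623 genes. The values are Pearson correlations of log2 levels across 18 libraries that share genotypes, depth and scaling, and they are a description. For *par-5* the nearest was *asb-1*, a germline subunit of the mitochondrial ATP synthase, at 0.997. For *par-3* it was *smgl-2* at 0.977, for *par-2* *tmed-10* at 0.969, for *par-1* the myosin phosphatase subunit *mel-11* at 0.965 and for *cdc-42* the cullin *cul-3* at 0.962. For *lgl-1* it was the intermediate filament gene *ifa-4* at 0.955, for *par-6* C01G8.1 at 0.951 and for *pkc-3* the mitochondrial chaperone *hsp-6* at 0.948. Among the PAR genes themselves *par-2* and *par-6* were most alike, at 0.896, although one belongs to the posterior and one to the anterior domain. *par-5* and *pkc-3* followed at 0.831 and *par-1* and *par-3* at 0.775, while *par-5* and *lgl-1* were at -0.776.

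Together the 9 PAR genes held 0.309% of D1 counts and 0.243% of D3 counts, 0.401% and 0.392% in *oma-1(zu405)* and 0.24% and 0.233% in N2. *par-5* made up 89.9% of their summed normalized level in D1 and 32.2% in D3, 69.9% and 70.4% in *oma-1(zu405)* and 31.3% and 29.3% in N2. Without *par-5* the sum was 695 CPM in D1 and 1065 CPM in D3, 1717 and 1716 CPM in *oma-1(zu405)* and 951 and 943 CPM in N2.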
